A study of Danio rerio with 12 samples.

Results

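The cytosolic heat shock protein genes of zebrafish larvae are described here from RNA sequencing of elmo3-/- and elmo3+/+ animals. The genes were chosen by name: 10 symbols, hsp70l, hsp70.1, hsp70.2, hsp70.3, hspa8, hsp90aa1.1, hsp90aa1.2, hsp90ab1, hspb1 and serpinh1b, were looked up among the 32520 gene identifiers of the tables, of which 29201 carry a symbol. A match was found for 9 of the 10 symbols, and it led to 12 genes, all of which passed the filter on low counts. The elmo3-/- larvae carry a CRISPR/Cas9 frameshift on both copies of elmo3, which encodes an engulfment and cell motility protein, and the elmo3+/+ larvae are wild type at that locus. Both genotypes came from the reporter line Tg(fli1:EGFP), whose endothelial cells make EGFP, were kept under normal husbandry with no heat treatment named, and were collected at 120 h post fertilisation. Each genotype had 6 samples, and each sample was 30 whole larvae frozen and extracted together. The sources used here do not say whether the pools came from separate clutches, so the p-values measure the spread between these pools, which may in part be technical.

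Heat shock proteins are molecular chaperones that bind unfolded or partly folded proteins. Hsp70 binds short hydrophobic stretches and releases them in a cycle of ATP hydrolysis that J-domain proteins start and nucleotide exchange factors reset, and Hsp90 acts later on nearly folded clients such as kinases, steroid hormone receptors and, in muscle, the myosin motor. Some of these genes are active in every cell, and others are kept low until heat, heavy metals or other proteotoxic stress frees the transcription factor Hsf1 from its chaperone inhibitors. In zebrafish, hsp70l is the classical heat-inducible gene and is also transiently active in the developing lens, while hsp90aa1.1 is made in skeletal muscle and is needed for thick filament assembly together with Unc45b and Smyd1b.

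The matches need a word on names. The symbols hsp70l (ENSDARG00000055723), hsp70.1 (ENSDARG00000029688), hsp70.3 (ENSDARG00000021924) and hsp90aa1.1 (ENSDARG00000010478) matched exactly, and HSP90AB1 (ENSDARG00000029150), HSPB1 (ENSDARG00000041065) and a pair of genes both named HSPA8 matched apart from letter case. The HSPA8 pair is called below the abundant HSPA8 gene (ENSDARG00000068992) and the scarce HSPA8 gene (ENSDARG00000037403). HSP90AA1 (ENSDARG00000024746) carries no paralogue suffix and stood for hsp90aa1.2. The name SERPINH1 is borne by an abundant gene (ENSDARG00000019949) and a scarce gene (ENSDARG00000075954), and which of them is serpinh1b could not be told from the name, so both are given. The gene hsc70 (ENSDARG00000012381) was included because the RefSeq table lists that name as a synonym of hspa8. The gene hsp70.2 was not analysed here. In the RefSeq gene order of assembly GRCz12tu, hsp70.1, hsp70.2 and hsp70.3 stand side by side with 0 protein-coding genes between neighbours, and so do hsp90aa1.1 and hsp90aa1.2. Reads that fit several such near-identical copies were shared out by the authors' estimation, so the split between copies is uncertain and sums over copies are given as well.

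Library totals lay between 16851426 and 17577126 estimated counts per pool, so that 3 counts, taken as the floor of detection, corresponded to 0.171 to 0.178 CPM (counts scaled to library size). The lowest count of any of the 12 genes in any pool was 46.2, for the scarce HSPA8 gene. The targeted gene does not check the genotype labels, since a frameshift need not change the amount of RNA. ELMO3 had between 45.0 and 91.0 counts in elmo3-/- pools and between 44.0 and 99.0 counts in elmo3+/+ pools. Markers of skeletal muscle, neurons, lens, epidermis, liver and pancreas were all detected, as whole larvae hold these tissues. In whole larvae, fewer cells of a type and less RNA per cell cannot be told apart.

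The levels of the 12 genes, in TPM, a unit per transcript length that allows genes to be set side by side, spanned 647-fold between the highest and the lowest mean over the 12 pools. Constitutive chaperones were at the top, though the scarce HSPA8 gene, grouped with them by name, was near the bottom at 2.99 TPM. The abundant HSPA8 gene, which encodes the cognate Hsc70 chaperone that folds newly made proteins and uncoats clathrin vesicles, averaged 1760 TPM, and HSP90AB1, the constitutive cytosolic Hsp90, averaged 1156 TPM. The order between these genes held in 12 of 12 pools. The third, hsc70, averaged 123 TPM and was 9.39-fold below HSP90AB1, again in 12 of 12 pools.

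Next came HSP90AA1 with a mean of 43.5 TPM, hsp90aa1.1 with 41.1 TPM and the abundant SERPINH1 gene with 40.1 TPM. Neighbours among these kept their order in only 7 of 12 pools, so their levels could not be ranked. SERPINH1 encodes Hsp47, a chaperone of procollagen that resides in the endoplasmic reticulum, so the word cytosolic does not apply to its product. HSPB1, a small heat shock protein that forms large oligomers and holds unfolded proteins without using ATP, averaged 28.5 TPM and was below the abundant SERPINH1 gene in 10 of 12 pools.

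The remaining genes were scarce. The means were 8.42 TPM for hsp70.3, 7.47 TPM for the scarce SERPINH1 gene, 6.45 TPM for hsp70l, 2.99 TPM for the scarce HSPA8 gene and 2.72 TPM for hsp70.1. HSPB1 was above hsp70.3 in 12 of 12 pools, whereas the ranges of the neighbours below it overlapped, and hsp70.3 exceeded the scarce SERPINH1 gene in 9 pools of 12. The strongly inducible Hsp70 genes thus stood among the lowest of the set.

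**Figure D1:**
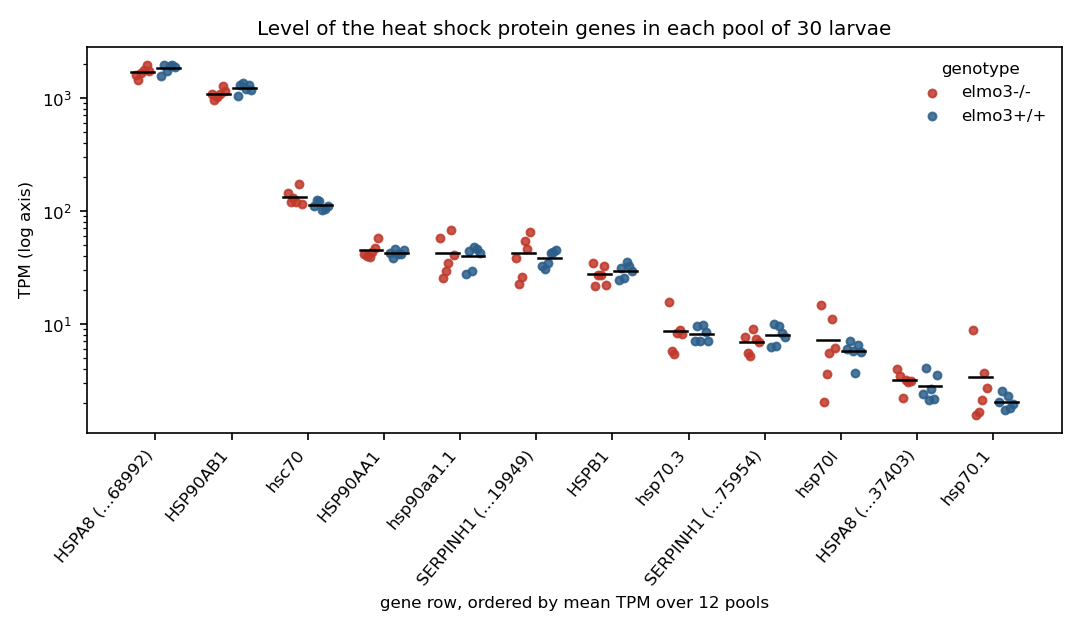
TPM on a log axis of the 12 heat shock protein genes in each pool of 30 larvae, with 6 elmo3-/- pools (red) left of 6 elmo3+/+ pools (blue) for each gene and a black bar at the mean. The abundant HSPA8 gene and HSP90AB1 lie at or above 948 TPM in every pool, and the elmo3-/- points of hsp70l and hsp70.1 spread more widely than the elmo3+/+ points.

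The comparison of elmo3-/- with elmo3+/+ larvae asked whether loss of Elmo3 goes with a change in these transcripts. By edgeR's quasi-likelihood test with Benjamini-Hochberg adjustment over all 21127 genes tested, 0 of the 12 genes passed an adjusted p of 0.05, against a background of 0.0994% of all genes (21 genes, with 12 or 0.0568% above and 9 or 0.0426% below the elmo3+/+ level). DESeq2 also called 0 of the 12. At an unadjusted p under 0.05, 2 of the 12 passed with edgeR and 2 with DESeq2. Over all genes, 9.52% (2012 genes) were under that p with edgeR, and 2145 genes with DESeq2, which ran without edgeR's filter. The adjusted p-values of edgeR ran between 0.489 and 0.920. Of the log2 fold changes, 8 were positive and 4 negative, with a median of 0.16 beside 0.0045 over all genes tested, of which 51.1% were positive, and 0 of the 12 genes had genotypes that did not overlap, where 0.431% of all genes did.

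Among the inducible Hsp70 genes, hsp70l, whose protein refolds heat-damaged proteins, had a lowest, median and highest level of 2.01, 5.80 and 14.7 TPM in elmo3-/- pools, against 3.68, 5.87 and 7.04 TPM in elmo3+/+ pools. The medians were close, and both extremes of the 12 pools were elmo3-/- pools. Levels of 14.7 TPM in elmo3-/- replicate 1 and 11.0 TPM in elmo3-/- replicate 5 lay above every elmo3+/+ pool, and 2.01 and 3.60 TPM in elmo3-/- replicates 2 and 3 lay below every elmo3+/+ pool. After TMM scaling elmo3-/- replicate 3, at 7.12 CPM, was no longer below elmo3+/+ replicate 4, at 6.17 CPM. On the log2 scale the fold change was 0.36 (standard error, SE, 0.35; 95% confidence interval -0.37 to 1.1; edgeR adjusted p = 0.744). It rested on elmo3-/- replicate 1, without which it was -0.0012.

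The gene hsp70.1, a further inducible Hsp70, had 1.55, 2.40 and 8.72 TPM as lowest, median and highest level in elmo3-/- pools, and 1.73, 1.97 and 2.52 TPM in elmo3+/+ pools. The ranges overlapped, but elmo3-/- replicates 1, 5 and 6, at 8.72, 3.65 and 2.69 TPM, lay above every elmo3+/+ pool, and replicates 2 and 3, at 1.55 and 1.64 TPM, lay below every elmo3+/+ pool. After TMM scaling elmo3-/- replicates 2 and 3, at 3.19 and 3.25 CPM, were above elmo3+/+ replicate 3, at 3.09 CPM. The log2 fold change was the largest of the 12 genes, 0.80 (SE 0.36, 95% confidence interval 0.04 to 1.56), and did not pass the threshold with edgeR (unadjusted p = 0.0404, adjusted p = 0.511). Without elmo3-/- replicate 1 the value was 0.24.

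Its neighbour hsp70.3 had 5.45, 8.22 and 15.6 TPM in elmo3-/- pools against 7.03, 7.79 and 9.76 TPM in elmo3+/+ pools, as lowest, median and highest level. The highest value was again that of elmo3-/- replicate 1, and the other elmo3-/- pools lay at or below 8.76 TPM, within or under the elmo3+/+ range. The log2 fold change was 0.15 (SE 0.20, edgeR adjusted p = 0.823), and it turned to -0.11 without that pool.

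Because reads can move between such copies, the 3 inducible genes were also summed. Their sum was 9.31 to 39 TPM in elmo3-/- pools and 14.6 to 19.2 TPM in elmo3+/+ pools. As a share of the summed TPM of the 6 Hsp70 genes it was 1.04% ± 0.60 in elmo3-/- pools and 0.814% ± 0.072 in elmo3+/+ pools (mean ± SD, n = 6 each). The share in elmo3-/- replicate 1 was 2.20%, and in elmo3-/- replicates 2 and 3 it was 0.592% and 0.598%, under the lowest elmo3+/+ share of 0.726%. The wider spread among elmo3-/- pools was therefore in the sum too, and not only in the division of reads between these 3 genes. The sum leaves out hsp70.2, and reads shared with that copy were not examined.

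**Figure D2:**
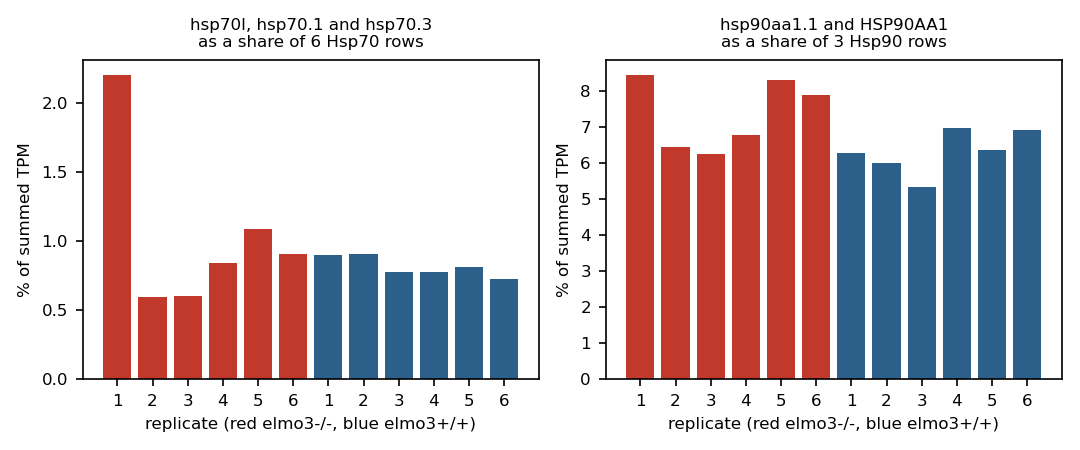
Left, the summed TPM of hsp70l, hsp70.1 and hsp70.3 as a percentage of the summed TPM of 6 Hsp70 genes, and right, hsp90aa1.1 plus HSP90AA1 as a percentage of 3 Hsp90 genes, as a bar for each pool (red elmo3-/-, blue elmo3+/+). The inducible share reaches 2.20% in elmo3-/- replicate 1, and the Hsp90 alpha share is at least 7.87% in elmo3-/- replicates 1, 5 and 6, over the elmo3+/+ maximum of 6.97%.

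The cognate Hsp70 genes differed little between pools in the case of the abundant HSPA8 gene. Its lowest, median and highest levels were 1439, 1691 and 1948 TPM in elmo3-/- pools and 1550.1, 1895 and 1973 TPM in elmo3+/+ pools. The genotypes overlapped over almost the whole range, and the log2 fold change was -0.05 (SE 0.08, 95% confidence interval -0.22 to 0.11, edgeR adjusted p = 0.845). The scarce HSPA8 gene had 2.20, 3.13 and 4.0 TPM in elmo3-/- pools and 2.13, 2.53 and 4.04 TPM in elmo3+/+ pools, with full overlap and a log2 fold change of 0.19 (SE 0.15, edgeR adjusted p = 0.678).

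The smallest p-value of the 12 genes belonged to hsc70. Its lowest, median and highest levels were 115, 125 and 173 TPM in elmo3-/- pools, against 102, 111 and 125 TPM in elmo3+/+ pools. The groups overlapped, with elmo3-/- replicates 1, 3 and 5 above every elmo3+/+ pool in TPM. After TMM scaling elmo3-/- replicate 2 was above them too, at 271 CPM against 238 CPM in the highest elmo3+/+ pool, replicate 3. The log2 fold change was 0.32 (SE 0.10, 95% confidence interval 0.10 to 0.54), and edgeR gave an unadjusted p of 0.00817 and an adjusted p of 0.489. Leaving out each pool in turn gave log2 fold changes between 0.24 and 0.37, all positive, and leaving out elmo3-/- replicates 1 and 5 together, a choice made after seeing the data, gave 0.17.

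Among the Hsp90 genes, hsp90aa1.1, the muscle form that chaperones myosin, had 25.6, 37.4 and 67.3 TPM as lowest, median and highest level in elmo3-/- pools, against 27.4, 43.4 and 48.0 TPM in elmo3+/+ pools. The median was lower in elmo3-/- pools while the mean was higher, at 42.4 ± 16.7 TPM in elmo3-/- pools and 39.7 ± 8.9 TPM in elmo3+/+ pools (SD, n = 6 each). Levels of 67.3 TPM in elmo3-/- replicate 5 and 57.9 TPM in elmo3-/- replicate 1 were above every elmo3+/+ pool. The log2 fold change was 0.16 (SE 0.21, edgeR adjusted p = 0.827), and it was -0.01 without elmo3-/- replicate 5.

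HSP90AA1, the other alpha gene, had 38.8, 42.6 and 57.0 TPM in elmo3-/- pools and 38.5, 42.0 and 45.9 TPM in elmo3+/+ pools. Its highest pool was elmo3-/- replicate 6, not a pool in which hsp90aa1.1 was high, and its log2 fold change was 0.14 (SE 0.08, edgeR adjusted p = 0.572). HSP90AB1 had 948, 1078 and 1268 TPM in elmo3-/- pools and 1044, 1242 and 1345 TPM in elmo3+/+ pools. The ratio of mean TPM was -0.17 on the log2 scale, whereas edgeR's TMM scaling, which sets the bulk of genes level between pools, gave -0.05 (SE 0.07, 95% confidence interval -0.21 to 0.10, adjusted p = 0.835). The share of the alpha genes in the summed Hsp90 TPM was 7.34% ± 0.97 in elmo3-/- pools and 6.30% ± 0.61 in elmo3+/+ pools (SD, n = 6 each), and 3 elmo3-/- pools exceeded the elmo3+/+ maximum.

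HSPB1, the small heat shock protein, had 21.5, 27.1 and 34.7 TPM in elmo3-/- pools and 24.3, 30.1 and 35.1 TPM in elmo3+/+ pools, with a log2 fold change of -0.05 (SE 0.13, edgeR adjusted p = 0.920). The ranges overlapped except for elmo3-/- replicates 2 and 6, which lay below every elmo3+/+ pool. The abundant SERPINH1 gene had 22.7, 42.4 and 65.3 TPM in elmo3-/- pools and 30.6, 38.1 and 45.4 TPM in elmo3+/+ pools. Here 3 elmo3-/- pools (replicates 4, 5 and 6) exceeded every elmo3+/+ pool and 2 (replicates 2 and 3) were below them all in TPM. After TMM scaling elmo3-/- replicate 3, at 33.3 CPM, was above elmo3+/+ replicate 2, at 28.4 CPM. The log2 fold change was 0.20 (SE 0.19, edgeR adjusted p = 0.742), or 0.07 without elmo3-/- replicate 6. The scarce SERPINH1 gene had 5.21, 7.13 and 8.98 TPM in elmo3-/- pools and 6.23, 8.0 and 9.95 TPM in elmo3+/+ pools, with a log2 fold change of the other sign, -0.15 (SE 0.12, edgeR adjusted p = 0.700).

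**Figure D3:**
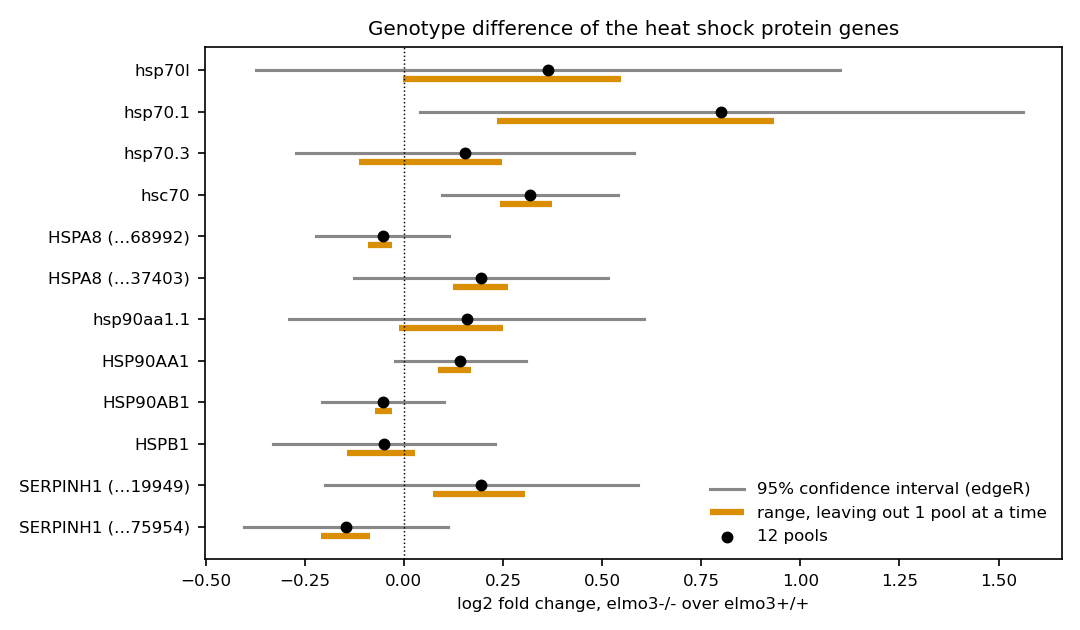
Log2 fold change, elmo3-/- over elmo3+/+, of the 12 genes (black points) with edgeR's 95% confidence interval (grey) and, in orange, the range of the estimate when each pool is left out in turn. The intervals of hsp70.1 and hsc70 alone lie above 0, before any adjustment for the number of genes, and the orange ranges of hsp70l, hsp70.3, hsp90aa1.1 and HSPB1 cross 0.

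The pools in which the inducible genes stood apart were few. After removal of the genotype means, the SD of log2 CPM over the 12 pools was 0.737 for hsp70l, percentile 97.5 among all genes tested, and 0.645 for hsp70.1, percentile 96.2. The SDs of hsp90aa1.1 and hsp70.3 were 0.433 and 0.384, at percentiles 86.8 and 82.4. At the other end, HSP90AB1 had an SD of 0.075, percentile 1.88, and the abundant HSPA8 gene 0.098, percentile 6.85. The SD of log2 CPM depends on a gene's level, so the edgeR dispersion was also set against the trend for genes of like level. On that measure hsp70l, hsp70.1, hsp90aa1.1 and hsp70.3 were at percentiles 99.0, 97.9, 97.4 and 95, the abundant SERPINH1 gene at 96.1, HSP90AB1 at 12.9 and the abundant HSPA8 gene at 22.8.

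For most of the variable genes the spread lay on the elmo3-/- side. The SD of log2 CPM of hsp70l was 0.981 among elmo3-/- pools and 0.351 among elmo3+/+ pools, and that of hsp70.1 was 0.895 and 0.172 in the same order. Without elmo3-/- replicate 1, the SDs of hsp70.1 and hsp70.3 over the remaining 11 pools of both genotypes were 0.311 and 0.199. For hsp70.1 that pool was not the only one outside the elmo3+/+ range. On log2 CPM, elmo3-/- replicates 5 and 6 stood 0.82 and 0.33 above the median of the 12 pools. The elmo3+/+ pools were between -0.24 and 0.23 from it. Removing the most extreme pool of hsp70l, elmo3-/- replicate 2, left an SD of 0.597. No test of unequal spread between the genotypes was made.

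Expressed as the deviation of log2 CPM from the median of the 12 pools, elmo3-/- replicate 1 stood at 2.14 for hsp70.1, 1.40 for hsp70l, 1.06 for hsp70.3 and 0.60 for hsp90aa1.1. The same pool was the highest of 12 for 4 genes and the lowest for none. Replicate 5 of the elmo3-/- genotype stood at 0.90 for hsp70l, 0.82 for hsp70.1, 0.75 for hsp90aa1.1 and 0.57 for hsc70, but at only 0.16 for hsp70.3. In elmo3-/- replicate 2 hsp70l was at -1.31, while hsp70.1 was at -0.19. The abundant HSPA8 gene stayed between -0.14 and 0.15 in all 12 pools. The share of counts from the 13 mitochondrial genes, a rough mark of RNA quality, was 9.10% in elmo3-/- replicate 1, 7.28% in elmo3-/- replicate 5 and 10.3% in elmo3-/- replicate 2, within 7.28% to 10.3% over elmo3-/- pools and 6.59% to 8.99% over elmo3+/+ pools, and its part in the outlying values was not tested. Lens markers, from a tissue that makes hsp70l in development, summed to 6362 to 10589.7 TPM in elmo3-/- pools and 6939 to 9147 TPM in elmo3+/+ pools, with none of the 8 at 0 in all pools, and their part was not tested either.

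**Figure D4:**
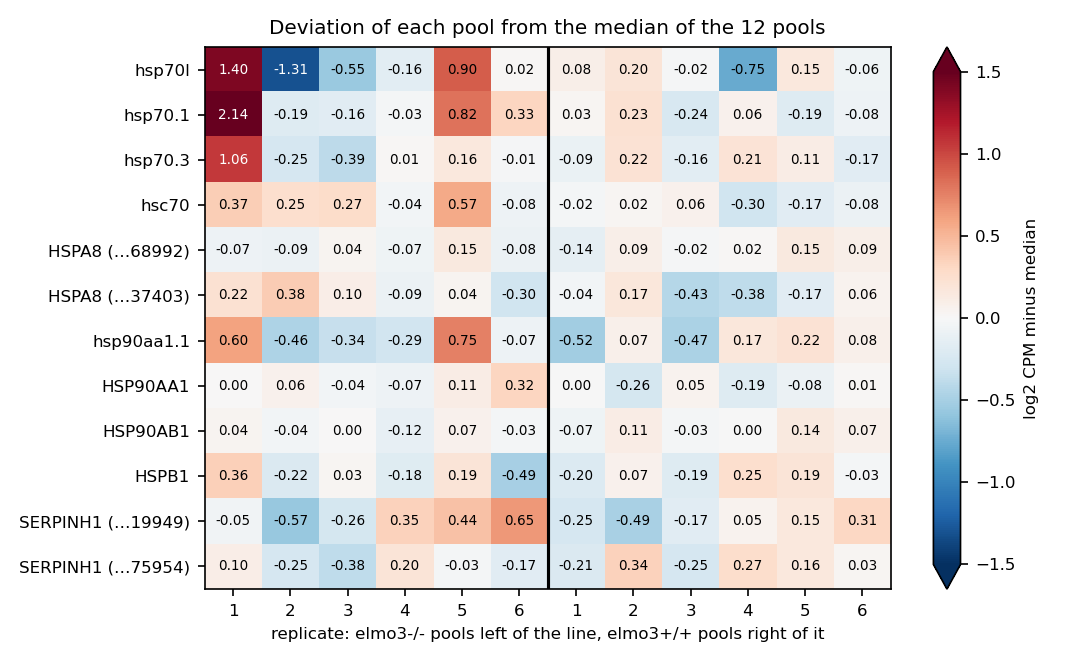
Heat map of the deviation of log2 CPM from the median of the 12 pools for each of the 12 genes, with the value written in each cell (colours saturate at 1.5 in either direction), elmo3-/- pools left of the line and elmo3+/+ pools right of it. The inducible Hsp70 genes and hsp90aa1.1 are high in elmo3-/- replicate 1, while the abundant HSPA8 gene and HSP90AB1 are near 0 throughout.

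The genes whose pattern over the 12 pools was most like that of each heat shock gene were looked up as a description, by Pearson r of log2 CPM with genotype means removed, among all genes tested. The pools share library and depth, and values as far out as elmo3-/- replicate 1 weigh heavily in such a coefficient. For hsp70.1 the list included hsp70.3, at an r of 0.936, a gene that can share reads with it, together with ENSDARG00000117211 (0.947) and WNT9A (0.909). For hsp70l they were EGLN3 (0.942), ZC3H12B (0.911) and VPS13A (0.910), and EGLN3 was 2.16-fold above its median in elmo3-/- replicate 1. For hsp70.3 they were hsp70.1, EIF4G1 (0.925) and SLC16A8 (0.924).

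The nearest genes to hsp90aa1.1 were si:dkey-266m15.5 (0.953), pycr1b (0.938) and EPRS1 (0.937), and to HSP90AA1 nlgn2a (0.979), PRR12 (0.948) and kiaa1549la (0.946). HSP90AB1 was nearest to XPNPEP3 (0.939), TCP1 (0.925), a subunit of the cytosolic chaperonin, and GATM (0.911). For the abundant HSPA8 gene they were SUCLG1 (0.953), FABP1 (0.940) and lgals2b (0.928), for the scarce HSPA8 gene f3b (0.905), THOC5 (0.899) and akna (0.895), and for hsc70 NDUFS8 (0.962), cpped1 (0.935) and cdca5 (0.932). HSPB1 was nearest to SAV1 (0.944), ckap4 (0.931) and si:dkey-65j6.2 (0.925). The abundant SERPINH1 gene was nearest to ptprna (0.935), PTPRN (0.934) and CNKSR2 (0.931), and the scarce one to nfatc3b (0.980), REST (0.976) and HMGA2 (0.968). The 2 SERPINH1 genes thus had no nearest gene in common.

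Within the set, hsp70l had an r of 0.823 with hsp70.1, 0.725 with hsp70.3 and 0.685 with hsp90aa1.1, and 0.228 with the abundant HSPA8 gene (12 pools, genotype means removed). The inducible genes and the muscle Hsp90 gene therefore had their high pools in common in part. This was not particular to them, since hsp90aa1.1 had an r of 0.752 with HSPB1, 0.734 with HSP90AB1 and 0.629 with the abundant HSPA8 gene. Its r was 0.713 with hsp70.1 and 0.706 with hsp70.3.

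The wider chaperone system was read from lists of genes with known roles. By edgeR, 0 genes of the lists named here passed the adjusted threshold, and DESeq2 likewise called 0, so only levels and unadjusted counts are given. Beside those counts, 9.52% of all genes were at an unadjusted edgeR p under 0.05 and 51.1% had a positive log2 fold change. With DESeq2, which ran without edgeR's filter, 2145 genes were at an unadjusted p under 0.05. Of 5 Hsf factors and Hsf-binding inhibitors tested, 4 had positive log2 fold changes with a median of 0.12, and 2 were at an unadjusted edgeR p under 0.05: hsbp1b, which encodes a protein that binds and restrains Hsf1, at 54.5 ± 4.3 TPM in elmo3-/- pools and 49.1 ± 5.9 TPM in elmo3+/+ pools, and HSF2, another heat shock factor, at 39.5 ± 6.0 TPM in elmo3-/- pools and 35.6 ± 4.8 TPM in elmo3+/+ pools (SD, n = 6 each). The master factor hsf1 itself averaged 9.08 ± 1.23 TPM in elmo3-/- pools and 9.36 ± 1.40 TPM in elmo3+/+ pools, with a log2 fold change of 0.02. It was taken up after its values had been seen.

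The 41 cochaperones of Hsp70 and Hsp90 had a median log2 fold change of -0.0044, with 19 positive, 2 at an unadjusted edgeR p under 0.05, both lower, and 3 by DESeq2. The share of all genes at that edgeR p was 9.52%, so 2 of 41 was not above the background. HSPBP1, a nucleotide exchange factor that drives substrate release from Hsp70, averaged 2.35 ± 0.38 TPM in elmo3-/- pools and 3.44 ± 0.62 TPM in elmo3+/+ pools (log2 fold change -0.42, SE 0.12, edgeR adjusted p = 0.489). The HSPA4 gene ENSDARG00000018989, an Hsp110-type exchange factor, averaged 36.3 ± 3.7 TPM in elmo3-/- pools and 41.9 ± 3.0 TPM in elmo3+/+ pools (log2 fold change -0.14, SE 0.06). In the per-pool medians the cochaperones stayed between -0.07 and 0.05, also in elmo3-/- replicates 1 and 5. A median over 41 genes does not show whether a few of them moved. In elmo3-/- replicate 1, 4 of the 41 were at their highest of the 12 pools and 5 at their lowest. The counts were 7 and 3 in elmo3-/- replicate 5, and 7 and 1 in elmo3+/+ replicate 3.

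UNC45B, the myosin chaperone that works with the muscle Hsp90, was chosen after its values had been seen. It had 8.72 and 9.86 TPM in elmo3-/- replicates 1 and 5, the pools in which hsp90aa1.1 was high, against a highest elmo3+/+ level of 7.27 TPM, and its log2 fold change was 0.13 (SE 0.16, edgeR adjusted p = 0.815). The same pools had the highest median deviation of the muscle markers among the 12, at 0.15 in elmo3-/- replicate 1 and 0.19 in elmo3-/- replicate 5. It was -0.22 and -0.27 in elmo3-/- replicates 4 and 6, and -0.08 to 0.13 in elmo3+/+ pools. In elmo3-/- replicates 2 and 3 the muscle markers were also above their medians, at 0.09 and 0.08. There hsp90aa1.1 was low, at -0.46 and -0.34 from its median. The part of the muscle markers in the hsp90aa1.1 levels was not tested. Over the 13 muscle marker genes 10 had positive log2 fold changes, with a median of 0.03, 0 at an unadjusted edgeR or DESeq2 p under 0.05, and summed levels of 74662 to 97606 TPM in elmo3-/- pools and 81209 to 91404 TPM in elmo3+/+ pools. None of these markers was at 0 in all pools.

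The 9 other small heat shock proteins had a median log2 fold change of -0.01, and 1 gene, beside 9.52% of all genes, was at an unadjusted edgeR p under 0.05. This was hspb6, a relative of HSPB1 found in muscle, at 35.1 ± 14.2 TPM in elmo3-/- pools and 26.9 ± 5.2 TPM in elmo3+/+ pools. HSPB7, which is known from heart and skeletal muscle, was at 2.11 ± 0.90 TPM in elmo3-/- pools and 3.66 ± 2.42 TPM in elmo3+/+ pools. Of the 5 cardiac muscle markers tested none was positive (51.1% of all genes were), with a median log2 fold change of -0.68, 4 at an unadjusted edgeR p under 0.05 (9.52% of all genes) and 0 after adjustment. Their summed level was 25.9 to 52.3 TPM in elmo3-/- pools and 35.9 to 64.9 TPM in elmo3+/+ pools, none was at 0 in all pools, and their part in the HSPB7 level was not tested. The 10 mitochondrial chaperones had a median of -0.0065 with 0 genes at an unadjusted p under 0.05 by edgeR or DESeq2, and GRPEL2, an exchange factor of mitochondrial Hsp70, had the smallest p, at 76.5 ± 4.6 TPM in elmo3-/- pools and 73.5 ± 5.6 TPM in elmo3+/+ pools, followed by TRAP1, the mitochondrial Hsp90, at 13.0 ± 1.7 TPM in elmo3-/- pools and 15.1 ± 2.0 TPM in elmo3+/+ pools. The 7 subunits of the cytosolic chaperonin had a median of -0.03, also with 0 genes at an unadjusted p under 0.05 by either tool. Its genes of smallest p were cct2, at 326 ± 44 TPM in elmo3-/- pools and 370.4 ± 43.2 TPM in elmo3+/+ pools, and CCT4, at 171 ± 21 TPM in elmo3-/- pools and 187 ± 16 TPM in elmo3+/+ pools.

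The chaperones of the endoplasmic reticulum, the compartment of Hsp47, were lower in elmo3-/- pools on average. All 16 of those tested had a negative log2 fold change, where 51.1% of all genes were positive, and the median was -0.20 beside 0.0045 over all genes. At an unadjusted p under 0.05 there were 7 by edgeR, beside 9.52% of all genes, and 7 by DESeq2, but none passed after adjustment. The pools were not cleanly divided by genotype. The median deviation of the list was -0.26 to 0.05 in elmo3-/- pools. It was -0.16 in elmo3+/+ replicate 1 and 0.06 to 0.20 in the other elmo3+/+ pools. In elmo3-/- replicate 2, 9 of the 16 genes were at their lowest of the 12 pools, and in elmo3+/+ replicate 1 it was 3. HSPA5, the Hsp70 of this compartment (BiP), had 50.5, 56.8, 56.8, 63.2, 63.8 and 64.2 TPM in elmo3-/- pools, against 55.8 TPM in elmo3+/+ replicate 1 and 72.5 to 82.6 TPM in the other elmo3+/+ pools. Its log2 fold change was -0.26 (SE 0.08, edgeR adjusted p = 0.489). HSP90B1, the Hsp90 of the same compartment, averaged 43.1 ± 7.4 TPM in elmo3-/- pools and 56.5 ± 10.2 TPM in elmo3+/+ pools (log2 fold change -0.32, SE 0.10, edgeR adjusted p = 0.489).

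Markers of several tissues had negative log2 fold changes as well, among them liver, pancreas, heart, red blood cells and leukocytes. The counts below stand beside 51.1% positive and 9.52% at an unadjusted edgeR p under 0.05 over all genes. All 6 hepatocyte markers were negative, with a median log2 fold change of -0.97, 6 of 6 at an unadjusted edgeR p under 0.05 and 0 after adjustment, and their summed level was 640 to 2651 TPM in elmo3-/- pools and 1043 to 4875 TPM in elmo3+/+ pools. Of these, fabp10a, the liver fatty acid binding protein, averaged 689 ± 282 TPM in elmo3-/- pools and 1358 ± 612 TPM in elmo3+/+ pools. The 7 pancreatic acinar markers were also all negative, with a median of -0.67 and 2 of 7 at an unadjusted edgeR p under 0.05, and summed to 464 to 1387 TPM in elmo3-/- pools and 472 to 1788 TPM in elmo3+/+ pools. The 5 erythrocyte markers were all negative, with a median of -0.56, 1 at an unadjusted edgeR p under 0.05, and sums of 453 to 1322 TPM in elmo3-/- pools and 518 to 1961 TPM in elmo3+/+ pools. Of the 8 leukocyte marker genes 2 were positive, the median was -0.53 and 4 were at an unadjusted edgeR p under 0.05, with sums of 21.5 to 29.3 TPM in elmo3-/- pools and 23.8 to 44.7 TPM in elmo3+/+ pools. Neuron and lens markers had positive medians: 8 of 9 neuron markers were positive, with a median of 0.09, and 5 of 8 lens markers, with a median of 0.12. The lens share was near the 51.1% over all genes. Of the 6 epidermis markers 2 were positive, with a median of -0.05. The neuron, lens and epidermis lists each had 0 markers at an unadjusted edgeR p under 0.05. None of the markers of these tissues was at 0 in all pools, and their part in the chaperone values was not tested.

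The collagens and collagen-modifying enzymes that Hsp47 serves were likewise mostly negative: 1 of 24 had a positive log2 fold change, the median was -0.09, and 3 were at an unadjusted edgeR p under 0.05, beside 51.1% positive and 9.52% at that p over all genes. A single pool, elmo3-/- replicate 6, was the lowest of the 12 for 18 of the 24 genes, with a median deviation of -0.32. The other elmo3-/- pools were at -0.09 to 0.08, and the elmo3+/+ pools at -0.09 to 0.22. COL9A1, a cartilage collagen, averaged 22.8 ± 6.1 TPM in elmo3-/- pools and 34 ± 8.2 TPM in elmo3+/+ pools (log2 fold change -0.51, SE 0.14, edgeR adjusted p = 0.489). PPIB, a prolyl isomerase of procollagen folding, averaged 211 ± 14 TPM in elmo3-/- pools and 253 ± 23 TPM in elmo3+/+ pools (log2 fold change -0.19, SE 0.07). The abundant SERPINH1 gene, at 0.20, had the other sign and the scarce one, at -0.15, the same sign. The abundant gene was highest in elmo3-/- replicate 6, at 62.6 CPM, the pool in which most of the collagen list was lowest. Cartilage and notochord markers, which include COL9A1, had 1 of 6 positive and a median of -0.38. Of these 6, 3 were at an unadjusted edgeR p under 0.05 (9.52% of all genes) and 0 after adjustment. Their summed levels were 336 to 413 TPM in elmo3-/- pools and 375 to 484 TPM in elmo3+/+ pools. None of them was at 0 in all pools, and their part in the collagen values was not tested.

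Genes that answer handling or oxidative stress early were examined next to the outlying pools. Of 27 tested, 17 had positive log2 fold changes, with a median of 0.05, and 2 were at an unadjusted p under 0.05 by edgeR and 2 by DESeq2, beside 51.1% positive and 9.52% at that edgeR p over all genes. HMOX1, the haem-degrading enzyme, averaged 1.5 ± 0.64 TPM in elmo3-/- pools and 2.61 ± 1.07 TPM in elmo3+/+ pools (log2 fold change -0.73, SE 0.29), and egr1, an immediate early transcription factor, averaged 153 ± 30 TPM in elmo3-/- pools and 135 ± 13 TPM in elmo3+/+ pools (log2 fold change 0.25, SE 0.12). In elmo3-/- replicate 1, the pool of highest hsp70l, 3 of the 27 genes were at their highest CPM of the 12 pools and 2 at their lowest, all of them named after their values had been seen. The highest were ATF3, a stress-induced transcription factor, at 6.35 TPM against an elmo3+/+ maximum of 3.77 TPM, FOSL1, a Fos-family factor, at 1.65 TPM against 1.52 TPM, and JUN, at 47.6 TPM, against an elmo3+/+ maximum of 51.1 TPM, so that it was highest by CPM but not by TPM. The lowest were HMOX1, at 0.825 TPM, and GCLM, a subunit of the enzyme that starts glutathione synthesis, at 3.61 TPM. Members of the list thus stood on both sides in this pool. In pools of low hsp70l more of the 27 genes were at their highest CPM. These were 5 in elmo3-/- replicate 2 and 7 in elmo3-/- replicate 3, with 0 at their lowest in either pool. In elmo3+/+ replicate 4 they were 4, with 5 at their lowest. The part of these genes in the outlying heat shock values was not tested.

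**Figure D5:**
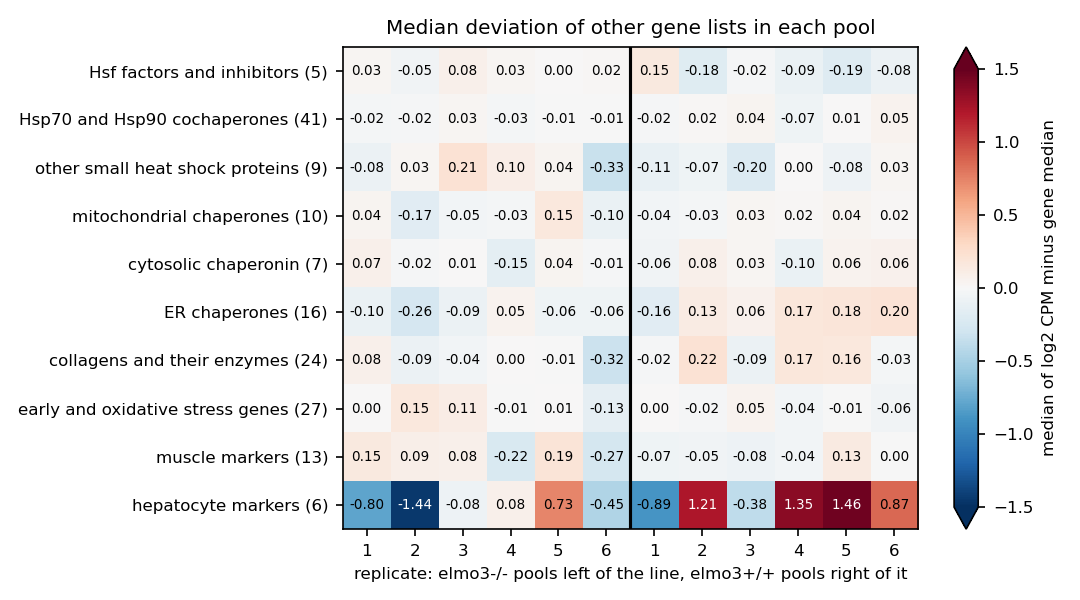
Heat map of the median deviation of log2 CPM from each gene's median over the 12 pools, for 10 lists (number of genes tested in brackets), with elmo3-/- pools left of the line and elmo3+/+ pools right of it. The cochaperones stay between -0.07 and 0.05 in every pool, whereas the hepatocyte markers range from -1.44 in elmo3-/- replicate 2 to 1.46 in elmo3+/+ replicate 5.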

How the data were processed

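RNA of 12 pools of larvae was sequenced on a BGISEQ-500. Per the labels, the authors used Trim Galore 0.6.4 and kallisto 0.4.6 with build GRCz11, and deposited the resulting estimated counts by gene, not scaled between pools, and the TPM, in separate tables for each pool. Pools were grouped by the genotype and replicate number in their titles.

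Estimated counts, of which 63.0% were whole, were rounded. After edgeR's filter on low counts and TMM scaling, 21127 genes were tested with the quasi-likelihood test on genotype (R 4.3.3, edgeR 4.0.16), with Benjamini-Hochberg adjustment and a threshold of 0.05. Code was tested on simulated data. Log2 CPM used a prior count of 2. Levels are deposited TPM. Alternatives were DESeq2 1.42.0, other scalings and filters, a replicate block, 1 surrogate variable (sva 3.50.0), limma 3.58.1 on log2(TPM + 1) and log2(TPM + 0.1), and leaving out each pool.

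All chosen heat shock genes are named, and for each the 3 genes with the highest Pearson r. In each list other than the tissue markers, the 2 genes of smallest p and any gene called are named. The hepatocyte marker fabp10a is named outside these rules. The genes and lists were chosen with earlier results of these data known. Names come from a table of Ensembl IDs.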

Additional observations from a re-analysis of the deposited data

Results flagged for a closer look

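Within each genotype of 6 pools, a pool was singled out where its gap to the nearest other pool exceeded Dixon's limit for 6 values, as a fraction of the whole range. For genes the gap was taken on log2 CPM, and for library totals and mitochondrial shares on the values themselves. Of 28 series examined, 2 had such a pool, and chance alone gives about 1 in 20. For hsp70l it was elmo3+/+ replicate 4, the lowest of its genotype at a log2 CPM of 2.65. The nearest pool was at 3.35, a gap of 0.7316 of the range. In TPM the same pool was at 3.68, the nearest at 5.62 and the highest at 7.04, so the gap is a smaller part of the range there. For the share of counts from the 13 mitochondrial genes it was elmo3+/+ replicate 1, at 8.99% against 6.59% to 7.19% in the other elmo3+/+ pools, with a gap of 0.7478 of the range. The share was 7.28% to 10.3% in elmo3-/- pools. Among elmo3-/- pools, the gap above which replicate 1 stood was 0.623 of the log2 CPM range for hsp70.3, just inside the limit, 0.566 for hsp70.1 and 0.183 for hsp70l, where replicate 5 was the next highest. The limit was not applied to TPM, where this gap is a larger part of the range for these genes. For hsp70.3, replicate 1 was at 15.6 TPM, replicate 5 at 8.76 TPM and the lowest pool, replicate 3, at 5.45 TPM. Whether a pool passes the limit thus depends on the scale.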

How the results depend on the processing

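In all 22 alternative settings 0 of the 12 genes were called, and the lowest adjusted p of any of them was 0.226. Of 264 alternative log2 fold changes, 254 kept their sign and side of the threshold and 10 changed sign, none of them past it. Leaving out each pool in turn gave -0.0012 to 0.55 for hsp70l and -0.11 to 0.25 for hsp70.3 (both lowest without elmo3-/- replicate 1), -0.012 to 0.25 for hsp90aa1.1 (lowest without elmo3-/- replicate 5) and -0.14 to 0.028 for HSPB1 (highest without elmo3-/- replicate 6). For hsp70.1 the range was 0.24 to 0.93, lowest without elmo3-/- replicate 1, and for the abundant SERPINH1 gene 0.07 to 0.31, lowest without elmo3-/- replicate 6. Without elmo3-/- replicates 1 and 5 together, left out after their values had been seen, the log2 fold changes were -0.39 for hsp70l, -0.19 for hsp70.3, -0.25 for hsp90aa1.1, 0.01 for hsp70.1 and 0.17 for hsc70, and 16 genes of the transcriptome were called. With 1 surrogate variable, the abundant HSPA8 gene was at 0.0090, HSPB1 at 0.11 and the scarce SERPINH1 gene at 0.076, while hsp90aa1.1 was at 0.48 (unadjusted p 0.0123 from edgeR), hsp70.3 at 0.33 and the abundant SERPINH1 gene at 0.33. The largest values in this setting were 0.98 for hsp70.1 (unadjusted p 0.0231 from edgeR) and 0.50 for hsp70l. In the other direction, HSP90AA1 fell to 0.068 and hsc70 to 0.29. With limma on log2(TPM + 1), hsp70.1 was at 0.36, hsp70l at 0.07, hsp70.3 at 0.01, hsp90aa1.1 at 0.04, the abundant SERPINH1 gene at 0.07 and HSP90AB1 at -0.17. With limma on log2(TPM + 0.1), hsp70.1 was at 0.44, hsp70l at 0.05, hsp70.3 at 0.0077, hsp90aa1.1 at 0.04, the abundant SERPINH1 gene at 0.07 and HSP90AB1 at -0.17. The cause was not tested. Ordered by CPM in place of TPM, 9 of the 11 neighbouring pairs of the 12 genes kept their order. The SD of log2 CPM fell to 0.311 for hsp70.1 and 0.199 for hsp70.3 without their most extreme pool.

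Over all genes, DESeq2 called 57 (33 higher and 24 lower in elmo3-/- larvae) where edgeR called 21 (12 and 9), and the cause was not tested. Leaving out each pool gave 17 to 22 genes. The split was 10 higher and 10 lower with total count scaling, and 9 higher and 11 lower with limma on log2(TPM + 1). Replicate numbers carry no stated meaning: same-numbered pools correlated above 0.1 in only 3 of 6 pairs, and 2 pools correlated best with their own number. With the replicate block 17 genes were called (8 higher and 9 lower) and 0 of the 12.

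Pools of 30 larvae leave single animals out of view, and the number of pools limits the precision. Reads shared by hsp70.1, hsp70.3 and hsp70l, or by the hsp90aa1 copies, cannot be assigned with certainty. No heat treatment was included.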
